A study of Mus musculus with 6 samples.

Results

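The endoplasmic reticulum (ER) is where secreted and membrane proteins enter the secretory pathway, fold and receive their first sugars. The genes described here are 46 such genes, chosen by name for their role. They are sensors of misfolded protein, chaperones and folding enzymes, degradation factors, and subunits of the translocon, the signal peptidase and the oligosaccharyltransferase, and were kept where their mean over the 6 libraries was 1 CPM or more (CPM is reads scaled to a common library total). All 46 were found and all 46 passed that limit, among 10511 genes of the series that did. They were set by role and not by their values in these libraries, though with results of the series known.

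Aged CD8 T cells, from C57BL/6 mice of around 65 weeks, were compared with young CD8 T cells, from C57BL/6 mice of 6 weeks. All mice were wild-type females, and the cells were isolated from the spleen, held for 2 days on immobilized antibodies to the T cell receptor beta chain (3 µg/ml) and to CD28 (1 µg/ml) with interleukin 2 (10 ng/ml), then kept for 5 more days in interleukin 2 at the same dose, 7 days in all. There were 3 libraries per age, called biological replicates in the labels without saying whether each is its own mouse or culture, so p-values measure the spread between these libraries, which may be technical. The series compared activated CD8 T cells of the 2 ages, and culture differences between the ages cannot be told apart from age.

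A CD8 T cell that has been activated becomes a secretory cell: its cytokines, granzymes, perforin and new surface receptors are all made at the ER. A nascent chain is brought to the membrane by the signal recognition particle, passes the SEC61 channel, loses its signal peptide and gains N-linked sugars. It is folded by BiP, the lectins calnexin and calreticulin and the protein disulfide isomerases, and what fails to fold is sent back to the cytosol for degradation. When folding demand exceeds capacity, the sensors IRE1, ATF6 and PERK start the unfolded protein response (UPR), in which XBP1 and ATF6 raise the genes of chaperones and degradation factors while PERK slows translation and, through ATF4, can raise the death-associated factor CHOP.

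The libraries held 1952552 to 2785915 reads, recovered from the CPM values as whole reads, so that 1 read was worth 0.359 to 0.512 CPM. Values count transcript 3' ends and do not grow with gene length. The defining markers of CD8 T cells were present. Cd8a was at 321, 344 and 244 CPM in the aged libraries, against 266, 276 and 268 CPM in the young libraries, and did not pass the test used throughout (limma, adjusted p under 0.05). Of the other 5 CD8 T cell markers Cd3d, Cd3e, Cd3g and Cd8b1 were called lower and Thy1 higher in aged cells. Cd3d was at 581 ± 14.4 CPM in aged and 773 ± 34.7 CPM in young cells, Cd8b1 at 304 ± 27.2 CPM in aged and 383 ± 21.7 CPM in young cells and Thy1 at 1149.7 ± 74.9 CPM in aged and 968 ± 16.3 CPM in young cells (SD, n = 3 per group). Cd4 had at most 1 read in a library. Of the markers of B cells Ms4a1, Cd79a and Pax5 had no reads in any library, and Cd79b was at 0, 1.53 and 1.41 CPM in the aged libraries, against 6.52, 2.51 and 9.99 CPM in the young libraries. Plasma cells, which carry a very large ER, have Jchain, Mzb1, Sdc1, Tnfrsf17 and Derl3 among their markers, and they summed to 0.471 to 4.61 CPM in aged and 2.51 to 8.45 CPM in young libraries, with Tnfrsf17 at no reads in all 6. Of 8 myeloid markers Lyz2, Adgre1, Flt3 and Siglech had no reads, and the 8 summed to 4.6 to 10.8 CPM in aged and 3.23 to 4.995 CPM in young libraries. The highest aged sum held 15 reads of Csf1r in Aged replicate 3, a gene with no reads in the other libraries, and Itgam was called lower in aged cells (0.442 ± 0.473 CPM in aged and 3.08 ± 1.49 CPM in young cells; SD, n = 3 per group). Of the erythroid markers Hbb-bs had no reads. Hbb-bt had no reads in the aged libraries, against 5.22, 7.54 and 11.1 CPM in the young libraries, and Hba-a1 was at 2.56, 0.767 and 0.471 CPM in the aged libraries, against 2.17, 4.31 and 4.61 CPM in the young libraries. With Irf4, Prdm1 and Xbp1, which activated T cells also express, the 8 plasma cell genes summed to 182.8 to 193.9 CPM in aged and 236 to 266 CPM in young libraries. Irf4 (25.6 ± 2.8 CPM in aged and 45.5 ± 6.32 CPM in young cells) and Prdm1 (58.0 ± 10.5 CPM in aged and 119.8 ± 10.0 CPM in young cells; SD, n = 3 per group) were called lower in aged cells and Xbp1, one of the 46, higher. The 3 NK cell markers summed to 191 to 248 CPM in aged and 156 to 185 CPM in young libraries. Of these, Eomes, which activated CD8 T cells also express, was called higher (196 ± 29.6 CPM in aged and 152 ± 14.7 CPM in young cells; SD, n = 3 per group). Klrb1c did not pass, with all aged libraries below all young ones (15.7 ± 3.34 CPM in aged and 22.8 ± 3.36 CPM in young cells; SD, n = 3 per group), and Ncr1 had at most 1 read in a library. The part of such cells in the results was not tested.

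Among the 46 genes, 8 of 9 chaperones and co-chaperones and 6 of 9 lectin chaperones and isomerases were higher in aged cells. So were 4 of the 5 oligosaccharyltransferase subunits among them. The channel subunits Sec61b and Sec61g and the isomerase P4hb did not pass the test, and Eif2ak3, the gene of the sensor PERK, was lower. Of the 46 genes 28 rose and 1 fell in aged cells and 17 did not pass, where 16.2% of all tested genes were called higher and 12.5% lower. The test was limma, a linear model fitted across all tested genes on log2(CPM + 1), two-sided, with a Benjamini-Hochberg adjusted p under 0.05. Fewer cells of a type and less RNA per cell cannot be told apart in such bulk samples. The median log2 difference of the 46, aged minus young, was 0.30, beside 0.032 over all tested genes. In 31 genes every aged library lay above every young library, which was so in 22.5% of all tested genes, and in 1 every aged library lay below, which was so in 18.3%. The genes summed to 12152 ± 79.5 CPM in aged and 9347 ± 232 CPM in young cells (SD, n = 3 per group), a level 1.3-fold higher in aged cells. Abundant genes were called more often: 13 of the 18 members averaging 200 CPM or more were called higher, where 35.4% of all genes at that level were, and 15 of the 28 members under 200 CPM, where 14.5% were. DESeq2 on the recovered reads called 19 of the 46 higher and 0 lower, where 9.06% and 9.68% of all genes were. In edgeR's quasi-likelihood test 25 were higher and 1 lower, where 13.7% and 14.8% of all genes were.

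A read at a 3' end can belong to a neighbour or a copy of a gene. The last 500 bases of Ppib overlap Snx22 on the other strand, those of Syvn1 overlap Mrpl49, and those of Manf overlap expressed genes on both strands. The ends of Dnajb9, Sec61b, Sec61g and Spcs2 are near-identical to pseudogenes or predicted copies that held 0 to 0.128 CPM or are not listed, and that of Ssr2 is near-identical to a stretch in Rtraf, so the values of these 8 genes are uncertain. The ends of Hsp90b1, Pdia6, Txndc5 and Sec61a1 also overlap other genes, which held 0 to 0.0639 CPM or are not listed.

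**Figure D1:**
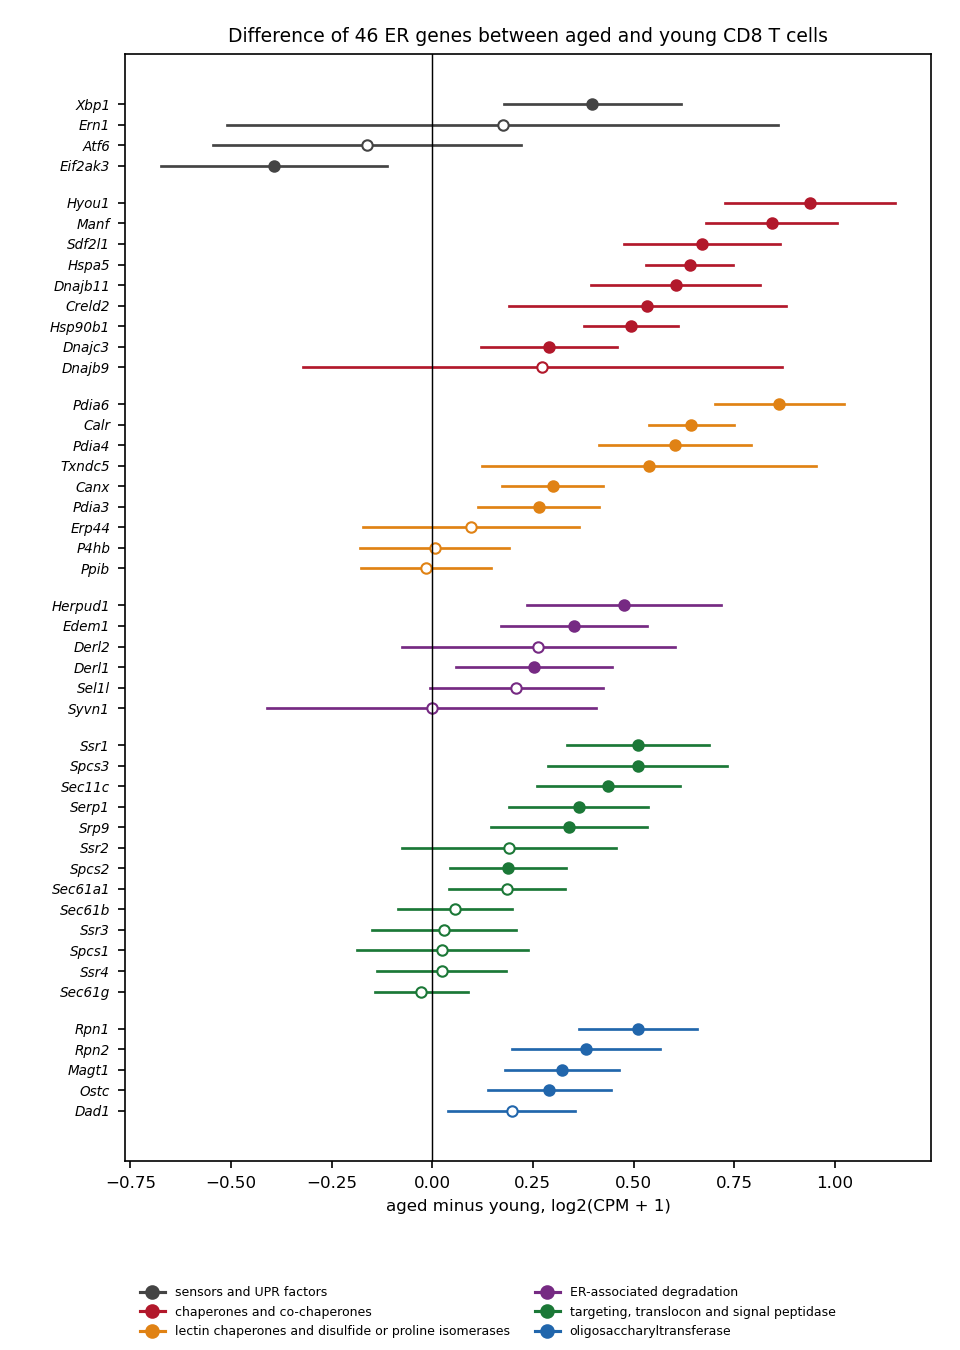
Each row is a gene, with its aged minus young difference on log2(CPM + 1) as a point and its limma 95% interval as a line, coloured by role. Filled points passed an adjusted p of 0.05. Hyou1 lies furthest to the right, at 0.94, followed by Pdia6 and Manf. Eif2ak3 is the sole filled point left of 0, at -0.39.

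Of the 4 sensors and UPR factors 1 rose and 1 fell, or 25% each, where 16.2% and 12.5% of all tested genes did. Xbp1, the transcription factor whose messenger RNA is spliced by IRE1, was at 107, 107 and 97.4 CPM in the aged libraries, against 86.5, 67.8 and 82.2 CPM in the young libraries. All aged values lay above all young ones, and Xbp1 rose 1.32-fold (log2 difference 0.40 ± 0.11 (SE), limma adjusted p = 0.00734). Reads of 3' ends do not tell spliced from unspliced Xbp1. Eif2ak3, which encodes PERK, was at 50.7, 44.1 and 61.7 CPM in the aged libraries, against 62.6, 63.5 and 79.5 CPM in the young libraries. Here the aged libraries all lay below the young ones, though the highest aged value and the lowest young value were close, and Eif2ak3 fell by 0.39 ± 0.13 (SE) on the log2 scale (limma adjusted p = 0.0335). Atf6, the sensor cut in the Golgi to give a transcription factor, was at 16.9, 18.8 and 18.8 CPM in the aged libraries, against 22.2, 17.2 and 22.3 CPM in the young libraries, and its groups overlapped (log2 difference -0.16, 95% interval -0.55 to 0.22). Ern1, which encodes IRE1, was at 8.19, 12.7 and 4.71 CPM in the aged libraries, against 8.69, 4.67 and 8.07 CPM in the young libraries, on 10 to 33 reads per library. Its interval was -0.51 to 0.86, and it did not pass. The Xbp1 call was lost without Young replicate 2 (log2 difference 0.29) and with DESeq2 (0.35). The Eif2ak3 call was lost without Aged replicate 1 (-0.38), Aged replicate 2 (-0.28) or Young replicate 3 (-0.28) and with DESeq2 (-0.45). The Ern1 difference, which did not pass, changed sign without Aged replicate 2 (-0.13) or Young replicate 2 (-0.068).

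Of the 9 listed chaperones and co-chaperones 8 rose (88.9%, against 16.2% of all tested genes). Hspa5 (ENSMUSG00000026864, chromosome 2, 34771970 to 34777547, GRCm38), which encodes BiP, the HSP70 of the ER lumen and the protein that holds the sensors inactive, was at 1491, 1470.2 and 1451 CPM in the aged libraries, against 963, 903 and 967 CPM in the young libraries. The groups did not overlap, and Hspa5 rose 1.56-fold (log2 difference 0.64 ± 0.051 (SE), limma adjusted p = 3.64e-08). It had the most reads of the 46 genes. Hyou1 (ENSMUSG00000032115, chromosome 9, 44379490 to 44392369), a large HSP70 relative that exchanges nucleotide on BiP, was at 130.1, 127 and 143 CPM in the aged libraries, against 69.6, 61.7 and 76.1 CPM in the young libraries, and its 1.92-fold rise was the largest of the 46 (log2 difference 0.94 ± 0.10 (SE), limma adjusted p = 1.12e-06). Hsp90b1, the HSP90 of the ER, which folds integrins and Toll-like receptors, was at 1176, 1121 and 1241 CPM in the aged libraries, against 864, 804 and 843 CPM in the young libraries, a rise of 1.41-fold. The summed level of the 9 genes was 3599 ± 33.9 CPM in aged and 2397 ± 82.8 CPM in young cells (SD, n = 3 per group).

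Among the other chaperones and co-chaperones, Manf, a secreted trophic factor that also binds BiP, was at 255, 249.6 and 249.9 CPM in the aged libraries, against 137, 132 and 151 CPM in the young libraries, 1.8-fold higher. Sdf2l1, which works with BiP and the J protein ERdj3, was at 164, 177 and 175 CPM in the aged libraries, against 106, 96.6 and 122 CPM in the young libraries, 1.59-fold higher. Dnajb11, which encodes ERdj3, was at 107 ± 9.47 CPM in aged and 69.8 ± 3.68 CPM in young cells (SD, n = 3 per group), 1.53-fold higher. In each of these genes the lowest aged library lay above the highest young library. Creld2, an EGF-domain protein of the ER, rose by 0.53 on the log2 scale and Dnajc3, a J protein also known as an inhibitor of PERK, by 0.29. Dnajb9, a J protein that recruits BiP to IRE1, did not pass, at 6.66, 15.3 and 9.41 CPM in the aged libraries, against 8.69, 8.61 and 6.92 CPM in the young libraries. The end of Manf overlaps Rbm15b on the same strand and Dcaf1 on the other (means over the 6 libraries of 57.9 and 65.6 CPM), so part of its reads could be theirs. The Creld2 call was lost without Aged replicate 3 (0.44), Young replicate 2 (0.50) or Young replicate 3 (0.48). The Dnajc3 call was lost without Young replicate 1 (0.22), and both were lost with DESeq2 (0.51 and 0.24). Dnajb9 was -0.017 without Aged replicate 2.

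**Figure D2:**
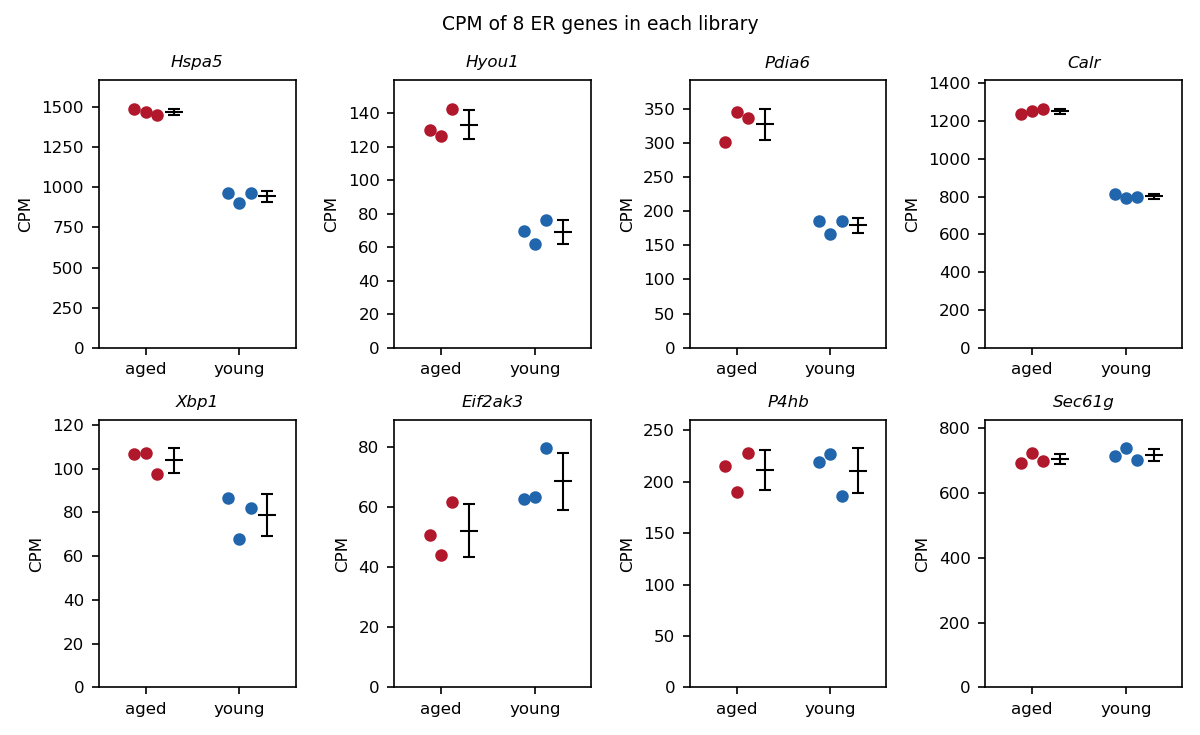
Each panel gives the CPM of a gene in the 3 aged and 3 young libraries as points, with the mean and SD beside them as a bar; axes start at 0. Hspa5, Hyou1, Pdia6, Calr and Xbp1 lie higher in aged libraries, Eif2ak3 lower, and P4hb and Sec61g overlap.

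Of the 9 listed lectin chaperones and isomerases 6 rose (66.7%, against 16.2% of all tested genes), and P4hb, Ppib and Erp44 did not pass. Calr, the soluble lectin and calcium store of the lumen, was at 1235, 1252 and 1264 CPM in the aged libraries, against 813, 791 and 796 CPM in the young libraries, 1.56-fold higher (log2 difference 0.64 ± 0.051 (SE), limma adjusted p = 2.84e-08). Its membrane-bound counterpart Canx was at 658, 638 and 664 CPM in the aged libraries, against 538, 497 and 559 CPM in the young libraries, a smaller rise of 1.23-fold. Pdia6 (ENSMUSG00000020571, chromosome 12, 17266545 to 17284770), an isomerase that works beside BiP and tempers the sensors, was at 301, 344 and 336 CPM in the aged libraries, against 186, 167 and 186 CPM in the young libraries, and at 1.82-fold it was the most increased of this group (log2 difference 0.86 ± 0.077 (SE), limma adjusted p = 1.19e-07). Pdia4, another isomerase, was at 245 ± 18.4 CPM in aged and 162 ± 20.9 CPM in young cells, 1.52-fold higher. Pdia3, the isomerase that pairs with calnexin and calreticulin and also serves the loading of MHC class I, was at 557 ± 10.6 CPM in aged and 466 ± 54.2 CPM in young cells (SD, n = 3 per group for both), 1.2-fold higher.

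P4hb, the founding protein disulfide isomerase, was at 216, 190.1 and 228 CPM in the aged libraries, against 219.5, 226 and 186 CPM in the young libraries. Its groups overlapped, with a log2 difference of 0.0057 and a 95% interval of -0.18 to 0.19 that lies below the interval of Pdia6 (0.70 to 1.02); the difference between the genes was not tested. The difference of P4hb turned sign with the scaling, at -0.047 with TMM factors. Ppib, the proline isomerase cyclophilin B, was at 183, 199 and 196 CPM in the aged libraries, against 182, 205 and 199 CPM in the young libraries and did not pass (95% interval -0.18 to 0.15). Erp44, which retains oxidases and immature clients between ER and Golgi, did not pass (log2 difference 0.10, 95% interval -0.17 to 0.37). Txndc5, an isomerase with several thioredoxin domains, was called higher at an adjusted p of 0.0486 in limma (log2 difference 0.54). Its call was lost in 12 of 16 alternatives, among them the leaving out of Aged replicate 2 (0.38), Aged replicate 3 (0.54), Young replicate 1 (0.63), Young replicate 2 (0.51) or Young replicate 3 (0.47). The Pdia3 call was lost without Young replicate 1 (0.23) or Young replicate 2 (0.20) and with DESeq2 (0.21).

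Promoters of UPR genes are known to carry the ER stress response element, ERSE, which ATF6 binds together with the factor NF-Y. RefSeq windows of 300 bases (GRCm38.p6, 250 before to 50 after a start site) were at hand for 37 of the 46 genes by symbol. They were searched on both strands, with no mismatch, for ERSE (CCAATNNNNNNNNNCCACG), ERSE-II (ATTGGNCCACG) and the XBP1 and ATF6 site UPRE (TGACGTGG). ERSE and ERSE-II both end in CCACG, letters that UPRE also holds on its other strand, so copies can overlap there. ERSE stood in the windows of 8 of the 37 genes (21.6%), against 0.137% of the 27025 genes with a listed window and 0.144% of the 8353 that were also tested. ERSE-II stood in 2 of the 37 (5.41%, against 0.0444% of all and 0.0958% of those tested). UPRE stood in Txndc5 alone (2.7%, against 0.714% of all and 1.02% of those tested). The list was drawn up around this pathway, so these shares describe it and test nothing. Some of these genes had more than 1 start, giving 42 windows in all. The last bases of 37 windows were found in a GENCODE transcript of the gene, and the start sites of the others are less certain. The 9 ERSE copies, shown because the genes that carry them include the most abundant of those that rose, are written in ERSE orientation from 5' to 3', with the fixed letters in capitals and the spacer in lower case:
Hspa5 site, chr2:34772025-34772043, plus strand: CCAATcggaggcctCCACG
Pdia6 site, chr12:17266491-17266509, plus strand: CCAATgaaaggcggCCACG
Calr site, chr8:84847075-84847093, plus strand: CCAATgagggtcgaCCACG
Hsp90b1 site, chr10:86705533-86705551, plus strand: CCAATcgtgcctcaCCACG
Hsp90b1 site, chr10:86705638-86705656, minus strand: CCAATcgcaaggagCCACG
Creld2 site, chr15:88819520-88819538, minus strand: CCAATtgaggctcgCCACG
Canx site, chr11:50325800-50325818, minus strand: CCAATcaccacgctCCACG
Dnajc3 site, chr14:118937827-118937845, plus strand: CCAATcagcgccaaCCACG
Syvn1 site, chr19:6046532-6046550, plus strand: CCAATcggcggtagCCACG

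The copies share no spacer, and of their 81 spacer bases 69.1% were G or C. Counted from the start site, they lay between 212 and 26 bases before it, in Hspa5 at 65 to 47 bases, in Pdia6 at 98 to 80 and in Calr at 162 to 144, and 6 of the 9 read in the direction of their gene. Hsp90b1 had a copy on each strand. The 2 ERSE-II genes were Herpud1, with its copy 52 to 42 bases before the start, and Dnajb11, with its copy at bases 8 to 18 of the transcribed part. Of the 10 genes with ERSE or ERSE-II 9 were called higher, with a median log2 difference of 0.51, where 16.2% of all tested genes were called higher. Of the 27 genes with a window and neither 13 were, with a median of 0.26. Of the 9 genes without a listed window, among them Hyou1 and Manf, 6 were, with a median of 0.29. Several of the 10 are abundant, and of all genes averaging 200 CPM or more 35.4% were called higher. Whether these elements bear on the rise was not tested. Syvn1, the tenth gene with ERSE or ERSE-II, was at 14.9, 23.0 and 20.2 CPM in the aged libraries, against 20.0, 20.1 and 17.3 CPM in the young libraries and did not pass (95% interval -0.41 to 0.41). Sdf2l1, Pdia4, Rpn1 and Ssr1 rose with no exact match in their windows, though that of Pdia4 lies wholly outside its GENCODE gene.

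Whole windows follow for Hspa5, Calr, Hsp90b1 and Pdia6, 4 of the genes that rose most clearly, and for Syvn1, which carried ERSE and did not pass. They run from 5' to 3' along the gene, and capitals mark the fixed letters of ERSE, which read as CGTGG and ATTGG where the copy lies on the other strand:
Hspa5 promoter, chr2:34771840-34772139, plus strand: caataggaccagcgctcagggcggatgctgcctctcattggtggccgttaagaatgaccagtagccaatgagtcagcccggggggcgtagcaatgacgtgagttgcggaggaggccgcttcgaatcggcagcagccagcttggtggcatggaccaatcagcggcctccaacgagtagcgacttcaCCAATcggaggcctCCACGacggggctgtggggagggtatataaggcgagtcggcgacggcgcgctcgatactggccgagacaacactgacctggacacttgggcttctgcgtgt
Calr promoter, chr8:84846882-84847181, minus strand: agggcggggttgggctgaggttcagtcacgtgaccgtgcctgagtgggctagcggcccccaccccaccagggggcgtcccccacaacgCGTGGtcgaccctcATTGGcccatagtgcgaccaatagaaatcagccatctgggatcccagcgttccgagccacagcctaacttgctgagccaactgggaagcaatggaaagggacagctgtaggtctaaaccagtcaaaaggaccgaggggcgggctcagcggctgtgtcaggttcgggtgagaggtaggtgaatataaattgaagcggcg
Hsp90b1 promoter, chr10:86705395-86705694, minus strand: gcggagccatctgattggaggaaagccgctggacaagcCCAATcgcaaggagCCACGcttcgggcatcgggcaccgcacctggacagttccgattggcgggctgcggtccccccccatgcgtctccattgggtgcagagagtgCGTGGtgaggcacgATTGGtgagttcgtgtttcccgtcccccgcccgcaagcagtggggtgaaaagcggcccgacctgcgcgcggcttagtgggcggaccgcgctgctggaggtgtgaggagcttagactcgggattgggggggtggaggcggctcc
Pdia6 promoter, chr12:17266339-17266638, plus strand: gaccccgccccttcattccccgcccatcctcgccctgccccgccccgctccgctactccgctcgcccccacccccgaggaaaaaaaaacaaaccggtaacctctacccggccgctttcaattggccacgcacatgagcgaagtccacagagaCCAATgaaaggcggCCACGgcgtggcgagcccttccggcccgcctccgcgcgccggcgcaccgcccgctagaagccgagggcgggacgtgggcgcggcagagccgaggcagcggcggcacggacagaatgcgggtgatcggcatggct
Syvn1 promoter, chr19:6046326-6046625, plus strand: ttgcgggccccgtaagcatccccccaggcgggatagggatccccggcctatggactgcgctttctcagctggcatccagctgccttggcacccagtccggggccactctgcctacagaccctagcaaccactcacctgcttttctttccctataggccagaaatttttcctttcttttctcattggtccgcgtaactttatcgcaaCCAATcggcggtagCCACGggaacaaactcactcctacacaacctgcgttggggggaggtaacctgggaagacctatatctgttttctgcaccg

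Outside the 46 genes, ERSE stood in the windows of only 4 of the tested genes with a listed window, Hnrnpa3, Adcy3, Pan2 and Alg12, named after their values were seen. Hnrnpa3, a splicing factor, rose by 0.21 on the log2 scale (limma adjusted p = 0.0125), and the other 3 had mean levels of 2.79 to 4.98 CPM in aged and 3.3 to 3.62 CPM in young cells and did not pass. Alg12, a mannosyltransferase that builds the sugar precursor of N-glycans, starts on the opposite strand beside Creld2, and the copy in both windows is the same 19 bases, chr15:88819520-88819538. Creld2 was at 31.4 ± 3.81 CPM in aged and 21.3 ± 2.61 CPM in young cells, and Alg12 at 4.28 CPM in aged and 3.3 CPM in young cells (mean, with SD for Creld2, n = 3 per group). Of the 6 tested genes outside the list with ERSE-II, Rcl1, which acts in ribosome assembly, rose by 0.66 on the log2 scale (limma adjusted p = 0.000252; also named after its values were seen). Krtcap2, Lgalsl, Lrif1, Nucb1 and Rbm39 did not pass.

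**Figure D3:**
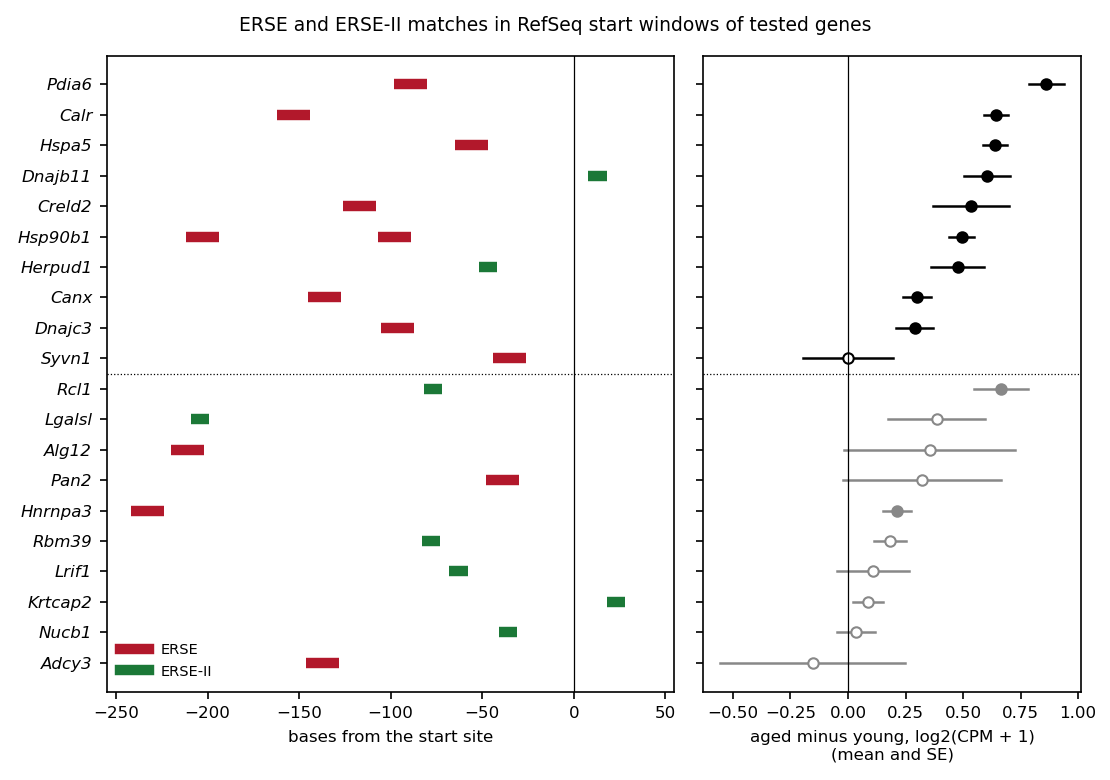
Left, the place of each exact ERSE (red) and ERSE-II (green) copy in bases from the start site, for every tested gene with a copy in a RefSeq window; right, its aged minus young difference on log2(CPM + 1) with the SE, filled where the adjusted p was under 0.05. The 10 rows above the dotted line are members, 9 of them filled, and the 10 below are other genes, of which Rcl1 and Hnrnpa3 are filled.

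Of the 6 genes of ER-associated degradation, which draws misfolded proteins back to the cytosol, 3 rose (50%, against 16.2% of all tested genes). Herpud1, an ER membrane protein that gathers the ligase complex, was at 92.7, 82.8 and 80.5 CPM in the aged libraries, against 58.3, 71.1 and 54.6 CPM in the young libraries, 1.39-fold higher (log2 difference 0.48 ± 0.12 (SE), limma adjusted p = 0.00382). Edem1, which trims mannose from glycoproteins marked for disposal, was at 162, 185 and 153 CPM in the aged libraries, against 129, 126 and 135 CPM in the young libraries, 1.28-fold higher, and its groups did not overlap. Derl1, part of the retrotranslocation machinery, rose by 0.25 on the log2 scale. The ligase HRD1, encoded by Syvn1, is above. Its partner Sel1l was at 70.2, 76.7 and 76.7 CPM in the aged libraries, against 62.2, 64.6 and 66.1 CPM in the young libraries: every aged library lay above every young one, and the log2 difference of 0.21 did not pass (95% interval -0.0062 to 0.42). Derl2 was at 64.5, 51.0 and 39.1 CPM in the aged libraries, against 35.2, 43.8 and 47.6 CPM in the young libraries, and Aged replicate 3 lay below 2 of the young libraries. Without Aged replicate 3 Derl2 was called higher (log2 difference 0.44, against 0.26 over all libraries). The Derl1 call was lost in 10 of 16 alternatives, among them the leaving out of Aged replicate 1 (0.24), Aged replicate 2 (0.22), Young replicate 1 (0.24) or Young replicate 3 (0.21), edgeR (0.20) and DESeq2 (0.20).

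Of the 13 listed genes for entry into the ER 6 rose (46.2%, against 16.2% of all tested genes). In all, the summed level of the 13 was 3060.2 ± 32.0 CPM in aged and 2748 ± 28.4 CPM in young cells (SD, n = 3 per group), 1.11-fold higher, where that of the 9 chaperones was 1.5-fold higher. Such sums weigh the most abundant genes most. The median log2 difference, which does not, was 0.19 for the 13 and 0.60 for the 9. Sec61g, the most abundant of the 13 and the smallest subunit of the channel, was at 691, 722 and 697 CPM in the aged libraries, against 714, 737 and 699.7 CPM in the young libraries, and the groups overlapped (95% interval of the log2 difference -0.14 to 0.088). Sec61b was at 349, 313 and 313 CPM in the aged libraries, against 309, 316 and 312 CPM in the young libraries and did not pass. Sec61a1, which forms the pore, was at 278, 278 and 268 CPM in the aged libraries, against 252, 242 and 231 CPM in the young libraries: the groups did not overlap, and its log2 difference of 0.19 had an adjusted p of 0.0501 in limma. Sec61a1 passed when genes under a mean of 5 CPM were left out (0.19) and with a pseudocount of 5 (0.18), and its adjusted p was 0.182 in edgeR and 0.323 in DESeq2.

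The translocon-associated protein complex, whose 4 subunits help some signal sequences through the channel, had Ssr1 alone called higher. Ssr1 was at 258, 258 and 290.4 CPM in the aged libraries, against 191, 168 and 208 CPM in the young libraries, 1.42-fold higher (log2 difference 0.51 ± 0.084 (SE), limma adjusted p = 0.00013). Ssr4 was at 225, 216 and 223 CPM in the aged libraries, against 217, 201 and 238 CPM in the young libraries. Ssr3 was at 177, 154 and 157 CPM in the aged libraries, against 167, 164 and 146 CPM in the young libraries. In both the groups overlapped, with 95% intervals of -0.14 to 0.18 and -0.15 to 0.21 that both lie below the interval of Ssr1 (0.33 to 0.69); these differences between genes were not tested. Both differences turned sign with TMM factors, at -0.030 and -0.024. Ssr2 had a log2 difference of 0.19 that did not pass (95% interval -0.075 to 0.46). Rtraf, which shares a stretch of its end, averaged 170.3 CPM over the 6 libraries. Serp1, a small protein that steadies the channel under stress, rose 1.29-fold, at 185 ± 13.8 CPM in aged and 144 ± 7.03 CPM in young cells.

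Of the 4 listed signal peptidase genes 3 rose, where 16.2% of all tested genes did. Sec11c, a catalytic subunit, was at 134, 145 and 142 CPM in the aged libraries, against 105, 100.1 and 105 CPM in the young libraries, 1.36-fold higher. The accessory subunit Spcs3 was at 78.9, 75.1 and 76.2 CPM in the aged libraries, against 56.5, 50.6 and 53.8 CPM in the young libraries, 1.43-fold higher. In both genes the groups did not overlap. Sec11a, the other catalytic subunit, was not in this list and was tested among the further genes of the pathway described below. It was at 121, 121 and 125 CPM in the aged libraries, against 135, 138 and 128 CPM in the young libraries. Every aged library lay below every young one, and Sec11a did not pass (log2 difference -0.13, 95% interval -0.30 to 0.046). Spcs2 was called higher at a limma adjusted p of 0.0451 (log2 difference 0.19). Spcs1 was at 72.2, 78.6 and 79.5 CPM in the aged libraries, against 80.9, 71.8 and 73.8 CPM in the young libraries and did not pass (95% interval -0.19 to 0.24; -0.027 with TMM factors). Srp9, which binds the RNA of the signal recognition particle, rose by 0.34 on the log2 scale. The Spcs2 call was lost in 11 of 16 alternatives, among them the leaving out of Aged replicate 1 (0.13), Aged replicate 2 (0.21), Young replicate 1 (0.16) or Young replicate 2 (0.17). The Srp9 call was lost without Aged replicate 2 (0.27) and with DESeq2 (0.30).

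Of the 5 subunits of the oligosaccharyltransferase, which moves the sugar precursor onto nascent chains, 4 rose. Rpn1 (ENSMUSG00000030062, chromosome 6, 88084482 to 88105304), which presents clients to the enzyme, was at 359, 372 and 388 CPM in the aged libraries, against 263, 243 and 279.7 CPM in the young libraries, 1.43-fold higher (log2 difference 0.51 ± 0.07 (SE), limma adjusted p = 1.94e-05). Rpn2 was at 146 ± 7.16 CPM in aged and 112 ± 8.7 CPM in young cells. Magt1, a subunit of the later-acting form of the enzyme, was at 292 ± 7.54 CPM in aged and 233 ± 5.62 CPM in young cells. Ostc, a subunit of the form docked at the channel, was at 266 ± 7.24 CPM in aged and 218 ± 14.9 CPM in young cells (SD, n = 3 per group). Rpn2 was 1.3-fold, Magt1 1.25-fold and Ostc 1.22-fold higher. The Ostc call was lost with DESeq2 (0.24). Dad1, named as a defender against cell death, was at 204, 212 and 210.4 CPM in the aged libraries, against 180.4, 173 and 194 CPM in the young libraries. Its groups did not overlap, and its log2 difference of 0.20 had a limma adjusted p of 0.0562. It was called without Young replicate 3 (0.24) and when genes under a mean of 5 CPM were left out (0.20), and its adjusted p was 0.166 in edgeR and 0.333 in DESeq2.

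**Figure D4:**
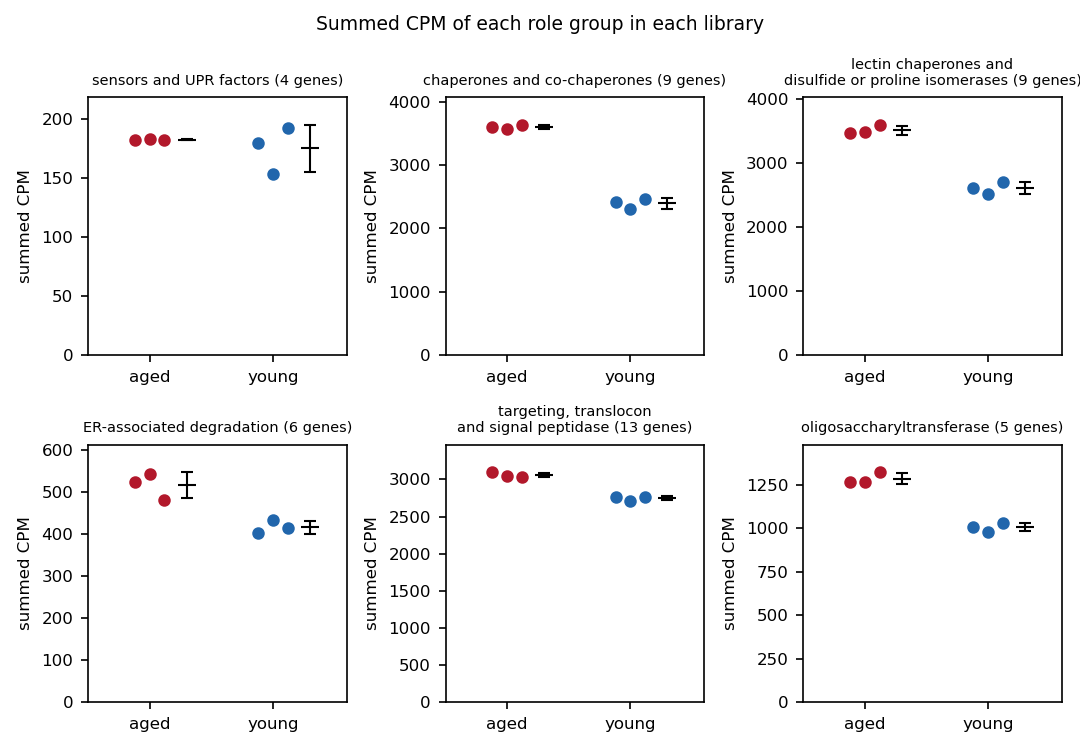
Each panel sums the CPM of a role group in the 3 aged and 3 young libraries, with the mean and SD beside the points; axes start at 0. The aged sums lie above the young sums in every panel but that of the 4 sensors, where they overlap, and the gap is widest for the chaperones, at 3599 CPM in aged and 2397 CPM in young cells.

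Ratios of reads within a library do not depend on how libraries are scaled. The pairs below were chosen after the values were seen and are given with no test. Reads of Hspa5 per read of Sec61a1 numbered 5.36, 5.29 and 5.41 in the aged libraries, against 3.83, 3.73 and 4.18 in the young libraries. Reads of Pdia6 per read of P4hb numbered 1.4, 1.81 and 1.47 in the aged libraries, against 0.846, 0.735 and 1.00 in the young libraries. Pdia6 outnumbered P4hb in every aged library and in no young library. Reads of Ssr1 per read of Ssr4 numbered 1.15, 1.19 and 1.3 in the aged libraries, against 0.882, 0.835 and 0.874 in the young libraries, so Ssr1 was likewise the more abundant in aged libraries alone. Reads of Calr per read of Canx numbered 1.88, 1.96 and 1.9 in the aged libraries, against 1.51, 1.59 and 1.42 in the young libraries. Within these 4 pairs every aged ratio lay above every young ratio. Each pair set a gene seen to rise more over a gene seen to rise less or not at all. The separation thus follows from the choice and adds no support.

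Further genes of the pathway came from 7 lists of 155 names, none of them among the 46. Of 146 tested, 37 rose and 9 fell, or 25.3% and 6.16%, where the backgrounds were 16.2% and 12.5%, and their median log2 difference was 0.11. The list nearest to the sensors held genes that fell beside genes that rose: of 15 tested, 4 rose and 3 fell. Atf4, the factor translated when PERK or its sister kinases are active, was at 643, 604 and 687 CPM in the aged libraries, against 492, 464 and 498 CPM in the young libraries, 1.33-fold higher (limma adjusted p = 6.03e-05). Ddit3, which encodes CHOP, was at 18.9, 17.6 and 18.4 CPM in the aged libraries, against 37.8, 37.3 and 34.2 CPM in the young libraries. All aged values lay below all young ones, and Ddit3 was 1.99-fold lower (log2 difference -0.95 ± 0.15 (SE), limma adjusted p = 0.000103). Trib3, a pseudokinase induced by CHOP, was at 30.2, 22.2 and 30.6 CPM in the aged libraries, against 48.3, 43.8 and 36.9 CPM in the young libraries, 1.55-fold lower. Ppp1r15a, which encodes GADD34 and restarts translation, fell by 0.67 on the log2 scale, and its constitutive counterpart Ppp1r15b was at 144 ± 5.69 CPM in aged and 111 ± 2.23 CPM in young cells (SD, n = 3 per group), 1.3-fold higher, and is named after its values were seen. Eif2s1, the translation factor that PERK phosphorylates, and Atf6b, the close relative of Atf6, also rose, by 0.47 and 0.64 on the log2 scale.

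The end of Ddit3 overlaps that of Mars on the other strand (mean over the 6 libraries 75.3 CPM), which leaves its value uncertain if the counting ignored strand. The Ppp1r15a call was lost without Aged replicate 2 (-0.61), Aged replicate 3 (-0.66), Young replicate 1 (-0.51) or Young replicate 2 (-0.63) and with DESeq2 (-0.81) or no filter (-0.67). Reads of Hspa5 per read of Ddit3 numbered 78.7, 83.4 and 79.1 in the aged libraries, against 25.5, 24.2 and 28.3 in the young libraries (a pair chosen after the values were seen).

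Of 33 further chaperones and folding enzymes tested, 7 rose and 2 fell, or 21.2% and 6.06%, where 16.2% and 12.5% of all tested genes did. Ero1a, the oxidase that passes disulfide bonds to P4hb, was at 213, 188 and 205 CPM in the aged libraries, against 387, 368 and 357 CPM in the young libraries, 1.84-fold lower (log2 difference -0.88 ± 0.071 (SE), limma adjusted p = 4.3e-08). Reads of P4hb per read of Ero1a numbered 1.01, 1.01 and 1.11 in the aged libraries, against 0.567, 0.616 and 0.520 in the young libraries (also chosen after the values were seen). Dnajc1 fell by 0.24 on the log2 scale, and lost its call without Aged replicate 1 (-0.18), Aged replicate 2 (-0.24), Young replicate 1 (-0.20) or Young replicate 2 (-0.22). Its end overlaps Mllt10 on the other strand (mean over the 6 libraries 82.9 CPM), so its value is uncertain too. Those with the smallest p among the 7 that rose were Tmx4, a membrane-bound thioredoxin-like protein, at 73.8 ± 5.39 CPM in aged and 41.5 ± 1.14 CPM in young cells, and Fkbp2, a proline isomerase, at 69.0 ± 7.99 CPM in aged and 36.5 ± 7.27 CPM in young cells. The next was Mydgf, an ER-resident and secreted factor, at 50.5 ± 4.41 CPM in aged and 33.3 ± 4.08 CPM in young cells (SD, n = 3 per group). Part of the end of Mydgf is near-identical to Pqlc1, so its reads could be divided.

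Of 10 further genes of the calnexin cycle and glycan trimming 5 rose (50%, against 16.2% of all tested genes). Mogs, the glucosidase that removes the outermost glucose, was at 84.0, 108 and 106 CPM in the aged libraries, against 61.3, 48.8 and 59.2 CPM in the young libraries, 1.76-fold higher. Mlec, a lectin for glucosylated glycans, was at 297 ± 10.4 CPM in aged and 223 ± 16.3 CPM in young cells, and Lman1, the lectin that carries glycoproteins towards the Golgi, at 202 ± 8.99 CPM in aged and 112 ± 8.84 CPM in young cells (SD, n = 3 per group), 1.8-fold higher. Of 6 further oligosaccharyltransferase genes 2 rose (33.3%), the catalytic subunits Stt3a and Stt3b, each by 0.39 on the log2 scale. Stt3a lost its call with DESeq2 (0.35).

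Of 24 further genes of degradation tested, 2 rose and 2 fell, or 8.33% each, where 16.2% and 12.5% of all tested genes did. EdgeR called 2 higher and 4 lower, where it called 13.7% and 14.8% of all genes. Vcp, the ATPase that pulls substrates out of the membrane, was at 752, 701 and 780.3 CPM in the aged libraries, against 549.9, 506 and 603 CPM in the young libraries, 1.35-fold higher. Selenos, its selenoprotein partner in the membrane, was at 342 ± 5.96 CPM in aged and 237 ± 7.75 CPM in young cells (SD, n = 3 per group), 1.44-fold higher. Os9, the lectin that hands glycoproteins to the ligase, was at 170.0, 158 and 168 CPM in the aged libraries, against 212, 205 and 209 CPM in the young libraries, 1.26-fold lower. Ngly1, which strips sugars from extracted proteins, fell by 0.40 on the log2 scale, a call lost without Aged replicate 1 (-0.37), Aged replicate 3 (-0.40), Young replicate 1 (-0.33) or Young replicate 2 (-0.34) and with DESeq2 (-0.47). Its end overlaps Oxsm on the other strand (mean 8.62 CPM).

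Of 31 further genes of targeting and translocation 9 rose and 1 fell, or 29% and 3.23%, where 16.2% and 12.5% of all tested genes did. Srp19, a protein of the signal recognition particle, was at 139.7 ± 4.45 CPM in aged and 102 ± 16.6 CPM in young cells. Srp72, a protein of the same particle, was at 383, 417 and 416 CPM in the aged libraries, against 491, 507 and 493 CPM in the young libraries, 1.23-fold lower. Get4, which guides tail-anchored proteins to the ER, was at 58.6 ± 0.782 CPM in aged and 36.1 ± 0.778 CPM in young cells (SD, n = 3 per group), 1.62-fold higher. Srp54b was called higher, but it shares a near-identical end with Srp54a and Srp54c, and the 3 summed to 176 ± 3.99 CPM in aged and 157 ± 9.13 CPM in young cells (SD, n = 3 per group). Without Young replicate 2 the Srp54b log2 difference was 0.75, against 1.32 over all libraries, and the call was lost with DESeq2 (1.18).

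Of 27 genes of ER exit and retrieval 8 rose and 1 fell, or 29.6% and 3.7%, where 16.2% and 12.5% of all tested genes did. The receptors that return escaped lumenal proteins bearing a KDEL-type end moved in opposite directions. Kdelr2 was at 86.6, 85.9 and 86.1 CPM in the aged libraries, against 58.7, 48.8 and 53.8 CPM in the young libraries, 1.6-fold higher. Kdelr1 was at 119, 120.4 and 112 CPM in the aged libraries, against 157, 154 and 144 CPM in the young libraries, 1.3-fold lower. In neither did the groups overlap. Reads of Kdelr2 per read of Kdelr1, a pair also chosen after the values were seen, numbered 0.725, 0.713 and 0.772 in the aged libraries, against 0.373, 0.318 and 0.372 in the young libraries. Kdelr2 was the less abundant in every library. Tmed10, a cargo receptor of transport vesicles, was at 207 ± 7.67 CPM in aged and 137 ± 5.5 CPM in young cells, and Surf4, a receptor for soluble cargo, at 187 ± 24.7 CPM in aged and 125 ± 3.62 CPM in young cells (SD, n = 3 per group). The end of Surf4 overlaps Surf2 on the other strand (mean 13.3 CPM).

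**Figure D5:**
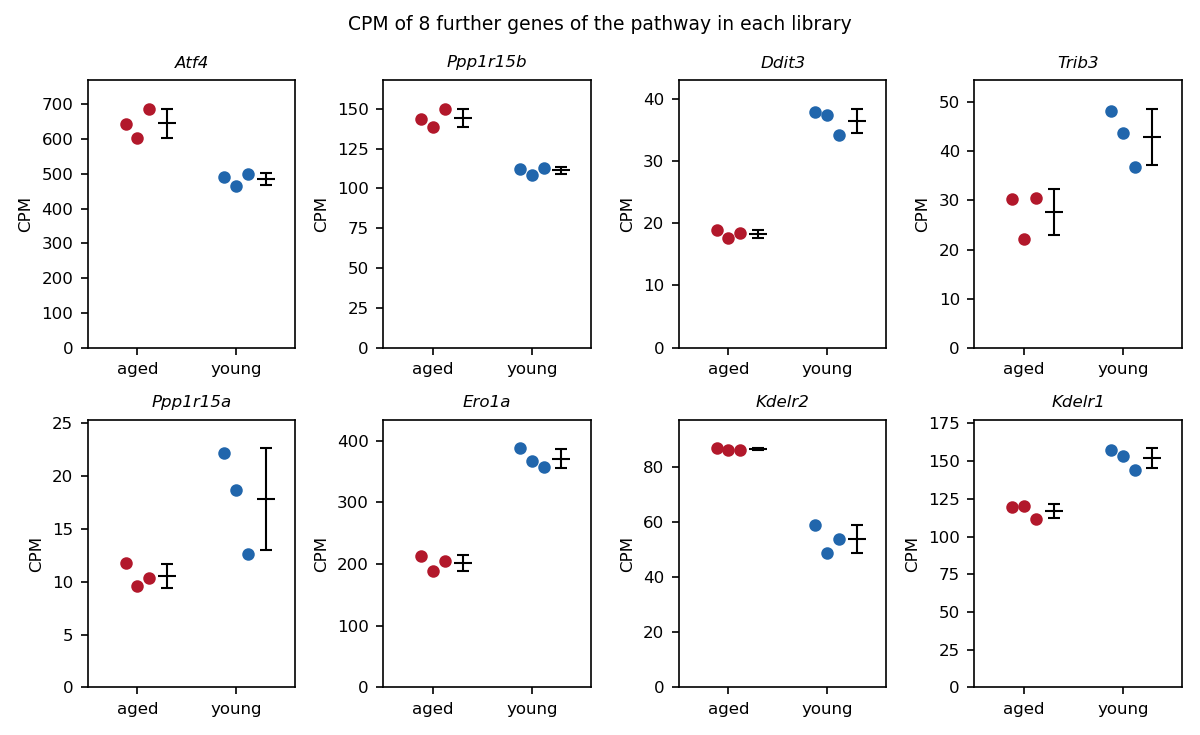
Each panel gives the CPM of a further gene of the pathway in the 3 aged and 3 young libraries as points, with the mean and SD beside them; axes start at 0. Atf4, Ppp1r15b and Kdelr2 lie higher in aged libraries, and Ddit3, Trib3, Ppp1r15a, Ero1a and Kdelr1 lower.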

How the data were processed

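Libraries of 3 aged and 3 young samples were made with the QuantSeq 3' mRNA kit, per the labels' protocols. The submitters' processing notes name build GRCm38 (mm10). Which aligner, counter, strand setting and annotation were used is not given in the sources used here. CPM values were deposited by the authors for 25655 Ensembl identifiers per library, 1 of them blank in all files. The deposited values are whole multiples of 1 read in 100% of cases (within 0.001 reads), so whole reads were recovered. The file of Aged replicate 2 heads its column as replicate 3 and was taken as replicate 2, as the record of files says. Symbols were matched through a GENCODE M21 table, coordinates come from GENCODE M21 and promoter windows from RefSeq.

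The main test was limma 3.58.1 (R 4.3.3) with an intensity trend on log2(CPM + 1), two-sided, with age as the sole term and genes averaging under 1 CPM left out; it was tested on simulated data. The pseudocount understates changes of low genes. Folds are ratios of group means in CPM. Alternatives were TMM, RLE and upper-quartile scaling, no filter or a 5 CPM filter, pseudocounts of 0.1 and 5, edgeR 4.0.16 and DESeq2 1.42.0 on those reads, a block for the replicate number, and leaving out each library. Where a library has 0 reads, up to 3 reads are allowed, 1.08 to 1.54 CPM, for counting error only. Replicates differed by more than counting noise (chi-square per degree of freedom 1.72 to 2.90 over the 6 pairs).

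Overlaps were sought in the last 500 bases of coding transcripts, and near-identical ends as at least 95% identity over at least 100 of the last 300 bases. The members and lists were chosen with earlier results of these data known. Named were the sensors, Hspa5, in each role the called gene with the largest change per direction and the most abundant, and up to 3 called genes of each further list and direction; members named beyond these were chosen after their values were seen. A planned look at protein ends was not made, since no protein table was used here. Some markers of other cell types are not reported here.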

Additional observations from a re-analysis of the deposited data

How the results depend on the processing

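Between 19 (DESeq2) and 30 (genes averaging under 5 CPM left out) of the 46 genes were called higher over the 16 alternatives, and 23 to 27 without each library in turn, against 28 in the analysis of all libraries. Of the 28, 19 kept their call in all 16 alternatives, and none of the 29 called genes changed sign in any of them. The 1 gene called lower, Eif2ak3, was the sole such call; leaving out each library gave 0 to 1 and DESeq2 0, with 1 gene lower at an unadjusted p under 0.05 in DESeq2. The median log2 difference of the 46 was 0.24 with TMM, 0.25 with RLE and 0.25 with upper-quartile scaling, 0.26 in edgeR and 0.26 in DESeq2, and 0.29 to 0.35 without each library. These settings shift all genes, whose median was -0.017 with TMM and -0.013 with RLE scaling, against 0.032; with them 1432 and 1451 of all genes were called higher and 1549 and 1532 lower, against 1701 and 1313.

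Signs turned, without any call, in genes near 0 and in Ern1 and Dnajb9, whose differences were 0.17 and 0.27 over all libraries. With TMM, RLE and upper-quartile scaling, edgeR and DESeq2 the log2 difference was -0.047, -0.043, -0.039, -0.054 and -0.048 for P4hb, -0.024, -0.020, -0.016, -0.028 and -0.023 for Ssr3, -0.030, -0.026, -0.021, -0.033 and -0.029 for Ssr4, and -0.027, -0.024, -0.019, -0.023 and -0.020 for Spcs1; Syvn1 was 0.0014 with a pseudocount of 5. Without each library in turn, the difference ran from -0.13 to 0.50 for Ern1, -0.017 to 0.53 for Dnajb9, -0.081 to 0.079 for P4hb, -0.066 to 0.021 for Ppib, -0.13 to 0.17 for Syvn1, -0.033 to 0.065 for Ssr3, -0.036 to 0.086 for Ssr4 and -0.0098 to 0.075 for Spcs1.

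With the replicate number as a block 27 genes were called higher and 1 lower. The numbers share no stated source. Deviations of same-numbered libraries correlated at 0.00025 to 0.021, and those of differently numbered libraries at -0.026 to 0.024. No pairing was seen, but with 3 libraries per group and counting noise in low genes such values cannot exclude one. Ern1 rested on 10 to 33 and Dnajb9 on 13 to 40 reads a library, and their intervals span both directions; the part of depth in this was not tested.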
